A study of Mus musculus with 4 samples.

Results

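Transcripts of 6 genes of the circadian output pathway were followed in the ventral midbrain of mice: the PAR-bZIP transcription factors Dbp, Tef and Hlf, their opponent Nfil3, and Wee1 and Tspan4, which follow the clock in other mouse tissues. They were chosen by gene symbol, as the probe set annotated to exactly 1 of these symbols. Each gene had 1 such probe set and 0 shared ones, so no choice between probe sets arose. All 6 lay above the filter on dim probe sets, among 13587 tested genes of the 19938 that had a probe set of their own.

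The samples were 2 arrays from RKO mice, labelled Rev-erba knock-out, and 2 arrays from WT mice, labelled wild-type. The knock-out is of Nr1d1, the gene of the nuclear receptor REV-ERBα. All mice were male, 10 to 15 weeks old and of C57BL/6J background, and no transgene, Cre or drug is named in the labels. After more than 10 days under a cycle with 12 h of light they were moved to constant darkness for 2 days, and tissue was taken on the next day. The clock hour of collection and the number of mice behind each array are not given in the sources used here, and the deleted part of Nr1d1 is not given either. The labels call the replicates biological. An effect of genotype and one of the hour or phase at collection cannot be told apart here, and in such tissue samples a change in the number of cells of a type cannot be told apart from a change in RNA per cell.

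DBP, TEF and HLF are basic leucine zipper proteins with a region rich in proline and acidic amino acids. They bind DNA as dimers at a sequence called the D-box and activate transcription there. NFIL3, also called E4BP4, binds the same sequence and represses, so the balance of the activators and NFIL3 over the day sets the output of D-box genes. The clock drives the activators and the repressor through different elements. BMAL1 and CLOCK activate Dbp through E-boxes, whereas REV-ERBα and the ROR receptors compete over Nfil3 and over Arntl, the gene of BMAL1, at ROR elements, where REV-ERBα represses. In the brain the PAR-bZIP factors are best known from mice that lack Dbp, Tef and Hlf together, which are prone to seizures and have less pyridoxal kinase, the enzyme that makes active vitamin B6. WEE1 is a kinase that holds back the entry into mitosis by inhibiting CDK1. TSPAN4 is a tetraspanin, a small protein that spans the membrane.

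The DNA just before the start of these genes is shown here to place the elements named above. RefSeq (GRCm38.p6) gave 7 windows of 250 bases upstream of a listed start, for 5 of the 6 genes (Dbp, Tef, Hlf, Nfil3 and Tspan4). Both strands of each window were searched for the E-box CACGTG, its variant CACGTT, the D-box as TTATGTAA or TTACGTAA, and the ROR element as ANTAGGTCA or ANTGGGTCA. No window held more than 1 match, so no matches overlapped. The Nfil3 window held 1 ROR element, both Tef windows held 1 E-box each, and the window at the second start of Tspan4 held 1 E-box. The single windows of Dbp and Hlf and the first of Tspan4 held none of these letters. Among all 32851 windows of the same length, 1.21% held the ROR element, 6.02% the E-box, 3.85% the variant E-box and 0.931% the D-box. The windows of Nfil3, Tef and Tspan4 with a match, and that of Dbp, which has none, follow 5′ to 3′ with matched bases in capitals.
Nfil3, chr13:52981040-52981289, minus strand: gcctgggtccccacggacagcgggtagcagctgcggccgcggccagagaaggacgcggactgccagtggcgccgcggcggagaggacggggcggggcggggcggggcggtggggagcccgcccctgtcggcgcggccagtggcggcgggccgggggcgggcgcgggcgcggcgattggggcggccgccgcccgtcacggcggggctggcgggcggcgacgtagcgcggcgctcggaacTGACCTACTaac
Tef, first start, chr15:81802423-81802672, plus strand: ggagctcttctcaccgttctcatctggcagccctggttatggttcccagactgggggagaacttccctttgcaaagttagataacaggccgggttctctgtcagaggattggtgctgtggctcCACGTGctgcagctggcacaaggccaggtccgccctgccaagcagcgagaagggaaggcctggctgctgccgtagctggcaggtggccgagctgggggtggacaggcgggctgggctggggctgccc
Tef, second start, chr15:81811164-81811413, plus strand: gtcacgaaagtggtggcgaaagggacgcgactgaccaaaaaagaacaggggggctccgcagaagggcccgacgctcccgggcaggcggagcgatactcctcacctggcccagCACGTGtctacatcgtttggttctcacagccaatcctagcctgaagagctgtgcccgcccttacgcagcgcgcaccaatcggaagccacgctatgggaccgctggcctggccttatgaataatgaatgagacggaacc
Tspan4, second start, chr7:141476130-141476379, plus strand: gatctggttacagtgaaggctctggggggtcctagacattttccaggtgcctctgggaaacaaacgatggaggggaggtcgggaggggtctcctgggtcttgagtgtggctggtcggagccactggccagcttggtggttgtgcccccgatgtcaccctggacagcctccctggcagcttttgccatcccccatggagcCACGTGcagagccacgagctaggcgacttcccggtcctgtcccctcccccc
Dbp, chr7:45704997-45705246, plus strand: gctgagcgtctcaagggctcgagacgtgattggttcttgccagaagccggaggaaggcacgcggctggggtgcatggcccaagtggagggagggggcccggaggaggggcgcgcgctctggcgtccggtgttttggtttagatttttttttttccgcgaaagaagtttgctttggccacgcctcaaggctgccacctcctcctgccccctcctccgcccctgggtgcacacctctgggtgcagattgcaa
The capitals in Nfil3 spell the ROR element on the opposite strand and lie at positions -12 to -4 from the start. Those in Tef lie at -127 to -122 and at -138 to -133, and those in Tspan4 at -51 to -46. A match describes the letters in the window and is not evidence of binding.

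The tissue label was set against marker genes of dopamine neurons, which define the ventral midbrain. All 12 listed markers were above the filter in these samples, but so were 13587 of all 19938 genes. The 11 listed genes of the thalamus and the 8 of the lateral hypothalamus all passed it too. Passing the filter therefore does not set the ventral midbrain apart from tissue around it. At most 5 of the intensities were identical between any 2 arrays, so no array was a copy of another. Median intensity over the tested genes was 539.8 on RKO replicate 1 and 558.6 to 558.7 on the other arrays. The knocked-out gene Nr1d1 had intensities of 1259 and 1229.7 on the RKO arrays, against 2897 and 3099 on the WT arrays (log2 difference -1.27, SE 0.0589, limma adjusted p = 2.44e-06). The call for Nr1d1 was kept whichever array was left out, with adjusted p at most 8.74e-04. In the fit without the filter the adjusted p was 0.00385 over all 4 arrays, and the call was lost there without RKO replicate 1 (-1.28, adjusted p = 0.269) or RKO replicate 2 (-1.25, adjusted p = 0.296).

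Nfil3, Dbp and Tspan4 rose in RKO, and Tef, Wee1 and Hlf did not pass the test. The rises were modest, between 1.23-fold and 1.38-fold. Thus 3 of the 6 genes were called higher and 0 lower at an adjusted p under 0.05 in limma, where 0.640% of all tested genes were called higher, 0.964% lower and 1.60% in either direction. The 2 RKO arrays lay above both WT arrays in 5 of the 6 genes, a pattern seen in 17.2% of all tested genes (24.6% had the RKO arrays below, and 41.8% did not overlap in either direction). The median log2 difference of the 6 genes was 0.23, against -0.01 over all tested genes. The genes were picked with results of these arrays known, so these shares describe them and test nothing. With 2 arrays a group the smallest p of an exact permutation test is 0.333, so each call rests on the spread that limma borrows from all genes.

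**Figure D1:**
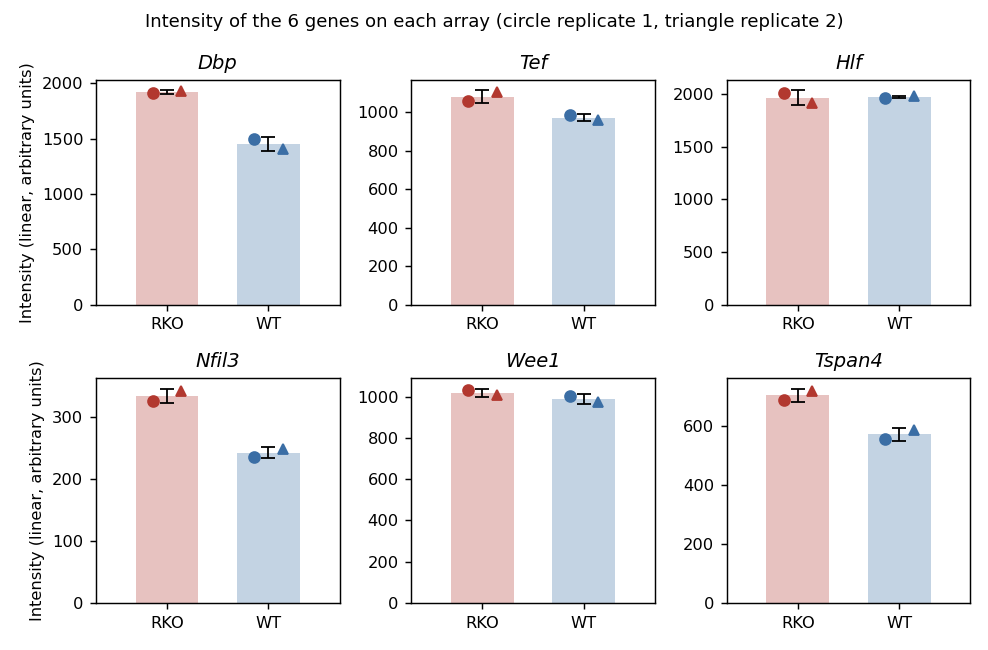
Linear intensity of each of the 6 genes, with RKO left and WT right. Points are single arrays (circle replicate 1, triangle replicate 2), bars the mean of 2 arrays and lines the SD. Nfil3, Dbp and Tspan4 show both RKO arrays well above both WT arrays (means of 334 against 242, 1919 against 1448 and 702 against 570.3), while those of Hlf overlap.

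Among the D-box activators Dbp moved furthest. Dbp, named for its binding to a D-box of the albumin gene, had intensities of 1907 and 1929.8 on the RKO arrays, against 1492 and 1403 on the WT arrays. Both RKO arrays were high and lay close together, and the groups did not overlap. The mean was 1919 ± 15.9 in RKO and 1448 ± 62.4 in WT (SD, n = 2 each), a rise of 1.33-fold (95% interval 1.21 to 1.45). On the log2 scale the difference was 0.41 (SE 0.0578, limma adjusted p = 0.0044), the 33rd largest rise of all tested genes. The gap between the nearest RKO and WT arrays, 0.35, was wider than the gap of 0.09 between the WT arrays. The call for Dbp was lost without RKO replicate 1 (difference 0.42, adjusted p = 0.0607) and without RKO replicate 2 (0.40, adjusted p = 0.0564), with the size hardly moved.

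Tef, the thyrotroph embryonic factor, was read at 1058 and 1103 on the RKO arrays, against 984 and 959 on the WT arrays. Both RKO arrays were above both WT arrays, by at least 0.10 on the log2 scale. Tef averaged 1080.1 ± 31.97 in RKO and 972 ± 18.2 in WT (SD, n = 2 each). The log2 difference of 0.15 (SE 0.0566) did not pass (limma adjusted p = 0.273), with an interval from 0.03 to 0.28. The difference between the changes of Tef and Dbp was not tested.

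Hlf, the hepatic leukemia factor, was at nearly the same level in both groups. It stood at 2017 and 1922 on the RKO arrays, against 1966 and 1982 on the WT arrays, and the RKO arrays lay on either side of both WT arrays. Hlf averaged 1969.7 ± 67.3 in RKO and 1974 ± 11.3 in WT (SD, n = 2 each). Its log2 difference was -0.0036 (SE 0.0566, limma adjusted p = 0.989), with an interval from -0.13 to 0.12. The sign of so small a value turned with the scaling (0.015 after quantile normalization).

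Nfil3, the repressor at D-boxes, showed the largest difference of the 6 genes. Its intensity was 326 and 342 on the RKO arrays, against 236 and 248 on the WT arrays. Both RKO arrays were high by a similar amount, and the gap between the groups, 0.39 on the log2 scale, was over that between arrays of a group (0.07 in RKO and 0.08 in WT). The mean was 334 ± 11.4 in RKO and 242 ± 8.93 in WT (SD, n = 2 each), a rise of 1.38-fold (95% interval 1.26 to 1.51). The log2 difference of 0.47 (SE 0.0588, limma adjusted p = 0.00214) was the 21st largest rise of all tested genes. Among the 5 genes with a window, only Nfil3 had a ROR element there, printed above. A link between that match and the rise of Nfil3 was not tested. Its lowest intensity lay above the filter of 167, and it kept its call whichever array was left out (0.43 to 0.50). An activator (Dbp) and the repressor (Nfil3) of D-boxes thus both rose in RKO.

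Wee1, the kinase that inhibits CDK1, was read at 1034 and 1007 on the RKO arrays, against 1005 and 973 on the WT arrays. The RKO arrays lay above the WT arrays by only 0.0022 on the log2 scale at the nearest pair. Wee1 averaged 1020.2 ± 19.1 in RKO and 989 ± 23.0 in WT (SD, n = 2 each), and its difference of 0.04 (SE 0.0561, limma adjusted p = 0.841, interval -0.08 to 0.17) did not pass.

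Tspan4 rose. Its intensity was 686 and 718 on the RKO arrays, against 555 and 586 on the WT arrays, without overlap. The mean was 702 ± 22.5 in RKO and 570.3 ± 22.0 in WT (SD, n = 2 each), a rise of 1.23-fold (95% interval 1.12 to 1.35). The log2 difference was 0.30 (SE 0.0588, limma adjusted p = 0.0302). Of the 3 calls it had the highest adjusted p, and it was lost without WT replicate 1 (0.26, adjusted p = 0.151), without RKO replicate 1 (0.33, adjusted p = 0.125) and without RKO replicate 2 (0.27, adjusted p = 0.15).

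The count of 3 rising genes therefore depended on the arrays and on the filter. It was 1 without RKO replicate 1 and 1 without RKO replicate 2 (Nfil3 in both), 2 without WT replicate 1 (Nfil3 and Dbp) and 3 without WT replicate 2. The share of all tested genes called higher moved too, to 0.236%, 0.250%, 0.478% and 1.05% in that order. An unadjusted limma p under 0.05 was reached by 4 of the 6 with and without the filter, and by 12.8% of all tested genes with it. When dim probe sets were kept in, limma called 0 of the 6 and 0.0401% of all genes higher. The same log2 differences of Nfil3, Dbp and Tspan4 then had adjusted p-values of 0.0749, 0.1 and 0.236.

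**Figure D2:**
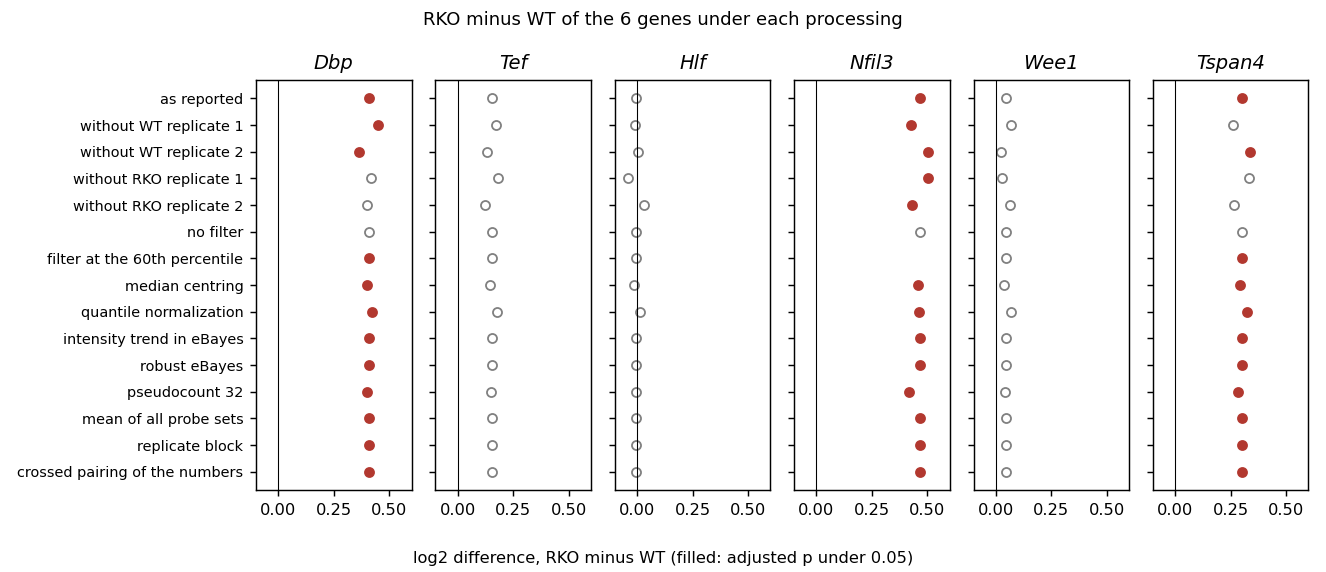
The log2 difference (RKO minus WT) of each of the 6 genes, 1 panel a gene, under the reported processing and each alternative. Filled points have an adjusted p under 0.05. Nfil3 is filled in each row where it was tested but the 1 with no filter, Dbp is open without either RKO array and with no filter, Tspan4 is open there and without WT replicate 1 too, and Tef, Hlf and Wee1 are open throughout.

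The genes that neighbour these 6 on their chromosomes were compared in the same fit. Of 14 neighbouring or overlapping protein-coding genes in the RefSeq gene order, 12 were tested, and limma called 0 higher and 0 lower. Sphk2, which overlaps Dbp, stood at -0.08 (adjusted p = 0.70), and Chid1, which overlaps Tspan4, at -0.04 (adjusted p = 0.882). The largest difference was that of Auh, beside Nfil3, at 0.17 (SE 0.055, adjusted p = 0.192), with 1625 and 1649 in RKO against 1438 and 1467 in WT. Dbp, Wee1 and Tspan4 lie on chromosome 7, Hlf on 11, Nfil3 on 13 and Tef on 15.

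Clock genes controlled through ROR elements, as Nfil3 is, were higher in RKO where they moved. Besides Nfil3, 4 of the listed genes were tested. Arntl had 581 and 613 on the RKO arrays, against 420.0 and 442 on the WT arrays (log2 difference 0.47, SE 0.0591, limma adjusted p = 0.00213). Cry1, a cryptochrome that represses BMAL1 and CLOCK, had 357 and 387 on the RKO arrays, against 291 and 300.2 on the WT arrays (0.33, SE 0.0606, limma adjusted p = 0.0208). Neither gene's arrays overlapped between the groups. Clock, the partner of BMAL1 (0.07), and Gpam, an enzyme of triglyceride synthesis (0.03), did not pass. The median of these 4 genes, without Nfil3, was 0.20. With a filter at the 60th percentile 3 genes of the list were tested, of which 1 was called higher, and the median was 0.07. The median of the 5 tested genes with Nfil3 was 0.33, and 3 rose with all arrays, 2 without WT replicate 1 or either RKO array and 0 with no filter.

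In its profile over the 4 arrays Nfil3 was nearest to Arntl of all tested genes. Likeness was measured as the root mean square difference between log2 values centred on each gene's mean. It was 0.0042 between Nfil3 and Arntl, and next came Vstm4 (0.0172) and Gata3 (0.0194), a transcription factor of midbrain GABA neurons. The genes nearest to Dbp were Bbox1, an enzyme of carnitine synthesis (0.0171), Gm266 (0.0194) and Ntn1, the axon guidance protein netrin 1 (0.0212). Those nearest to Tspan4 were Zfp366 (0.0201), Slc6a3, the dopamine transporter (0.021), and Agtr2, an angiotensin receptor (0.0214). All 9 were called higher in RKO. With 4 arrays in 2 groups, any 2 genes with a like difference between the groups come out as near neighbours.

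The other genes driven through E-boxes, as Dbp is, were mostly higher or not called. Leaving aside the 6 genes and Nr1d1 itself, 9 were tested, of which 3 rose, 0 fell and 6 did not pass. Ciart, a repressor of BMAL1 and CLOCK, had 1388 and 1318 on the RKO arrays, against 1109 and 951 on the WT arrays (0.40, SE 0.0744, limma adjusted p = 0.0239). Per1, a period protein of the negative limb, had 695 and 738 on the RKO arrays, against 590.4 and 596 on the WT arrays (0.27, SE 0.0577, limma adjusted p = 0.0439). Cry1, given above, was the third. Among those that did not pass, the largest values were those of Bhlhe41 (0.25), Cry2 (0.24) and Per3 (0.24). The RKO arrays lay above both WT arrays in 8 of the 9, where 17.2% of all tested genes did, and the median of the 9 was 0.24. Of all tested genes 0.640% were called higher. Over the whole list of 15 tested genes, 5 rose and 1, Nr1d1, fell with all arrays. Without RKO replicate 1 or RKO replicate 2, 0 of the 15 were called higher, and 3 were when either WT array was left out. With a filter at the 60th percentile 8 of 14 were called higher, and with no filter 0 of 15.

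**Figure D3:**
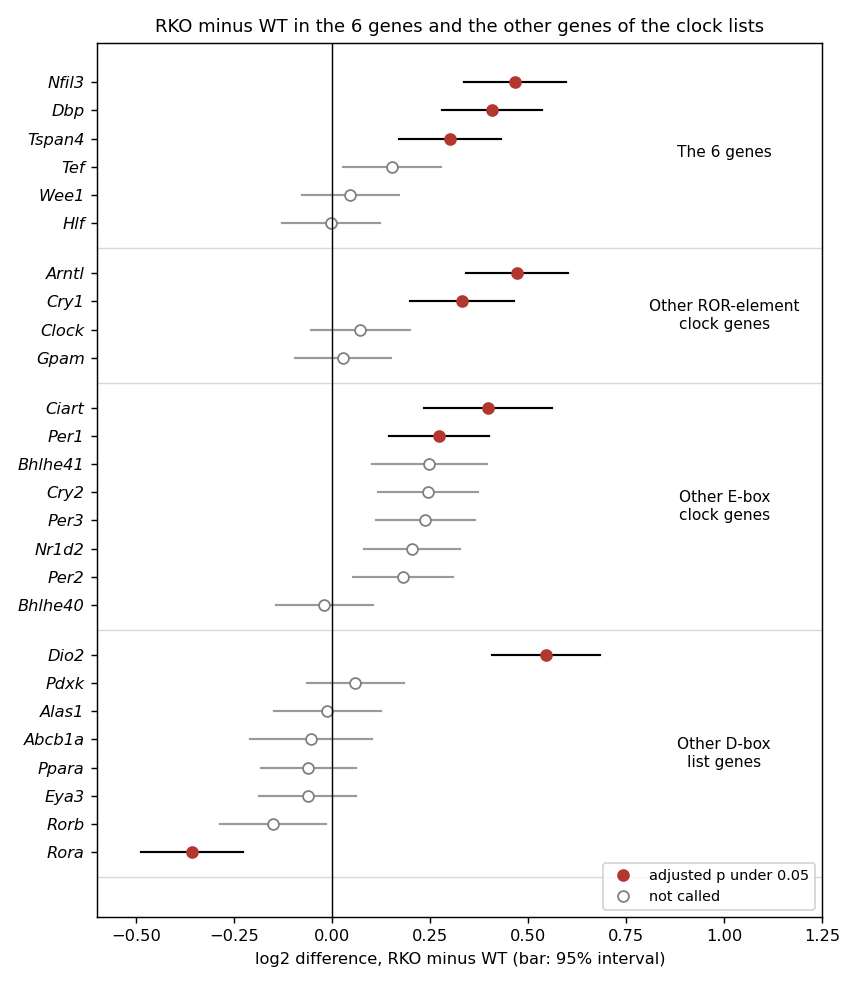
The log2 difference (RKO minus WT) of the 6 genes and of the other genes of the ROR-element, E-box and D-box lists, each gene shown once and Nr1d1 left out. Points are limma estimates over 2 RKO and 2 WT arrays, lines their 95% intervals, and filled points have an adjusted p under 0.05. Nfil3 (0.47) and Arntl (0.47) lie at the same difference, and Rora (-0.36) is the only filled point left of 0.

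Genes listed as targets of D-boxes, at which DBP, TEF, HLF and NFIL3 act, went both ways. Leaving aside Tspan4 and Nr1d1, 13 were tested, of which 3 rose, 1 fell and 9 did not pass, with a median of 0.06. Dio2, the deiodinase that makes active thyroid hormone in the brain, rose most, with 628 and 665 on the RKO arrays against 426 and 461 on the WT arrays (0.55, SE 0.0624, limma adjusted p = 0.00126). Cry1 and Per1 were the others that rose. Rora, a ROR receptor, fell, with 1668 and 1789.9 on the RKO arrays against 2199 and 2229 on the WT arrays (-0.36, SE 0.0589, limma adjusted p = 0.0109). Rora is also enriched in the thalamus, whose markers are given below. Per3 (0.24), Nr1d2, the gene of REV-ERBβ (0.20), and Per2 (0.18) had the largest values among those that did not pass. Of all 22 listed genes 5 lay below the filter, genes of the liver such as Cyp7a1 and Gys2 among them, and 2 had no probe set used here. Over the whole list 4 genes rose with all arrays, 1 without WT replicate 1, RKO replicate 1 or RKO replicate 2, and 0 with no filter. Cry1 and Per1 stand in both the E-box and the D-box list, and the list was written with results of these arrays known.

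Pyridoxal kinase, the target known from brains without PAR-bZIP factors, was not among the genes that passed. Pdxk, singled out after its values were seen, had 2421 and 2499 on the RKO arrays, against 2332 and 2393 on the WT arrays, with RKO above WT by 0.06 (SE 0.056, limma adjusted p = 0.771). Of 6 tested genes of vitamin B6 and of enzymes that use it in transmitter synthesis, 1 rose, 0 fell and 5 did not pass. The gene that rose was Ddc, the decarboxylase of dopamine and serotonin synthesis, with 1736 and 1777 on the RKO arrays against 1419 and 1363 on the WT arrays (0.34, SE 0.0564, limma adjusted p = 0.0122). The call for Ddc was lost without RKO replicate 1, without RKO replicate 2 and with no filter. Ddc is also a marker of dopamine neurons. Pdxp, which removes the phosphate of active vitamin B6 (-0.08), Gad1, which makes GABA (0.08), and Pdxdc1 (-0.06) had the largest values of the rest.

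Other basic leucine zipper factors that were listed did not pass. Of 10 tested genes of the C/EBP family and of related factors, limma called 0 (1 at an unadjusted p under 0.05). Their differences ran from -0.14 to 0.10, with a median of 0.03. That unadjusted p was reached by 12.8% of all tested genes. Crem (-0.14), Atf5 (0.10) and Creb1 (-0.08) were the farthest from 0. Cebpd and Cebpe lay below the filter.

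Many of the partners of Wee1 were dim in these samples. Of 18 listed genes of the entry into mitosis, 9 lay below the filter, Cdk1, the kinase that WEE1 inhibits, and Mki67 among them. A further 2 had no probe set used here. Of all 19938 genes 6351 lay below the filter. Of the 7 tested, Wee1 included, limma called 0 (0 at an unadjusted p under 0.05, against 12.8% of all tested genes). The phosphatase Cdc25b (0.11), the cyclin Ccnb2 (0.11) and the inhibitor Cdkn1b (-0.07) were the farthest from 0, and the list median was 0.03.

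Among tetraspanins Tspan4 alone was called. Of the other 23 tested genes of the family limma called 0 (3 at an unadjusted p under 0.05, against 12.8% of all tested genes), with differences from -0.19 to 0.13 and a median of -0.02. Tspan15 had 503 and 519.9 on the RKO arrays, against 580.1 and 585 on the WT arrays (-0.19, SE 0.0555, limma adjusted p = 0.155). Cd82 (-0.17) and Cd9 (-0.15) came next. RKO arrays lay below WT arrays in 9 of the 23 and above them in 0, against 24.6% and 17.2% of all tested genes. The difference between Tspan4 and the rest of its family was not tested.

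Further genes that follow the clock in many mouse tissues, as Wee1 and Tspan4 do, were called in 2 of 17 cases. Sgk1, a kinase induced by glucocorticoids, had 1368 and 1395 on the RKO arrays, against 977 and 1006 on the WT arrays (0.48, SE 0.0556, limma adjusted p = 0.00136). Tsc22d3, the glucocorticoid-induced leucine zipper, had 631 and 647 on the RKO arrays, against 520.3 and 491 on the WT arrays (0.34, SE 0.0579, limma adjusted p = 0.0137). Lonrf3 (0.27), Leo1 (0.18) and Hsph1, a heat shock protein (-0.13), had the largest values of the 15 that did not pass, and the median was 0.02. The count of 2 became 3 without WT replicate 1, 1 without any other single array, and 0 with no filter.

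Signals other than the clock also reach Nfil3, Per1 and Sgk1, so lists of genes that respond to glucocorticoids and to neuronal activity were set beside them. Of 11 tested glucocorticoid-responsive genes 4 rose, 0 fell and 7 did not pass, with a median of 0.07. With no filter 0 of the 11 were called. Plin4, a protein of lipid droplets, was added to Sgk1, Tsc22d3 and Per1, with 313 and 296 on the RKO arrays against 221 and 239 on the WT arrays (0.41, SE 0.0616, limma adjusted p = 0.00697). Zbtb16 (0.13), Mt2 (0.07) and Sult1a1 (-0.07) led the rest, and the 4 calls became 2 without WT replicate 2 or RKO replicate 2 and 1 without RKO replicate 1. Of 13 activity-induced genes limma called 0 (6 at an unadjusted p under 0.05, against 12.8% of all tested genes), with a median of 0.12. Dusp1 (0.28), Fos (0.25) and Egr1 (0.24) were highest. Without WT replicate 2, 1 of the 13 was called higher, and 3 were with median centring. The part of these signals in the differences of Nfil3, Dbp and Tspan4 was not tested.

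Markers of some cell types and of neighbouring tissue differed between the groups alongside the 6 genes. Of 15 tested leptomeningeal genes 10 fell and 0 rose, with a median of -0.35 and summed intensities of 10991 and 11089 on the RKO arrays against 13850 and 13503 on the WT arrays. Ogn (-1.11), Islr (-0.76), Slc13a4 (-0.66) and Slc6a13 (-0.49) led them, and Lum lay below the filter. The list did not move as a whole. Its 3 collagens, Col1a1 (0.13), Col3a1 (0.08) and Col1a2 (0.07), had both RKO arrays above both WT arrays, though none was called. Of 11 thalamic genes 3 fell and 0 rose (median -0.23, sums of 17489.7 and 17798 in RKO against 20771 and 21070 in WT), namely Ramp3 (-0.68), Prkcd (-0.57) and Rora. Of 12 dopamine neuron markers 6 rose and 0 fell (median 0.28, sums of 21334 and 21956 in RKO against 17480 and 17893 in WT). Th (0.72), Slc18a2 (0.42), Ddc (0.34) and Slc6a3 (0.33) led them. Both RKO arrays lay above both WT arrays in 10 of the 12, where 17.2% of all tested genes did. They lay below in 1, Aldh1a1 (-0.10, not called), and those of Lmx1b (0.01) overlapped. The 10 leptomeningeal calls became 5 without RKO replicate 1 and 6 without RKO replicate 2, and the 6 of dopamine neurons 3, 2 and 1 without WT replicate 1, RKO replicate 1 and RKO replicate 2. The 3 thalamic calls became 6 with median centring and 2 with no filter. With no filter the leptomeningeal calls became 3, and those of dopamine neurons 1. These 3 list medians kept their sign. The part of these markers in the differences of Nfil3, Dbp and Tspan4 was not tested.

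Other marker lists held fewer called genes or moved both ways. Of 8 genes of the lateral hypothalamus, a neighbouring region, Pmch (-1.14) and Hcrt (-0.52) fell and Cartpt (0.50) rose, with 1 gene called lower in place of 2 without RKO replicate 2. Of 10 oligodendrocyte genes 1 fell, Opalin (-0.30), and 0 were called without WT replicate 1, RKO replicate 1 or RKO replicate 2. All 10 nevertheless had both RKO arrays below both WT arrays, where 24.6% of all tested genes did, with a median of -0.10 and summed intensities of 36473 and 36626 in RKO against 39698 and 38718 in WT. Of 12 astrocyte genes 2 fell, Gfap (-0.51) and Aldh1l1 (-0.31), with a median of -0.0037, and 1 was called without WT replicate 1 or RKO replicate 1. Both RKO arrays lay above both WT arrays in 6 of the 12 astrocyte genes, with Gja1 (0.22) and Agt (0.21) highest, and below them in 6. Of all tested genes 17.2% lay above and 24.6% below. With a filter at the 60th percentile 2 astrocyte genes were called higher and 2 lower. Of 10 microglial genes limma called 0 (1 at an unadjusted p under 0.05), with a median of -0.07. Of 11 endothelial and pericyte genes it called 0 (4 at that p), with a median of -0.08. Among all tested genes 12.8% reached that p.

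**Figure D4:**
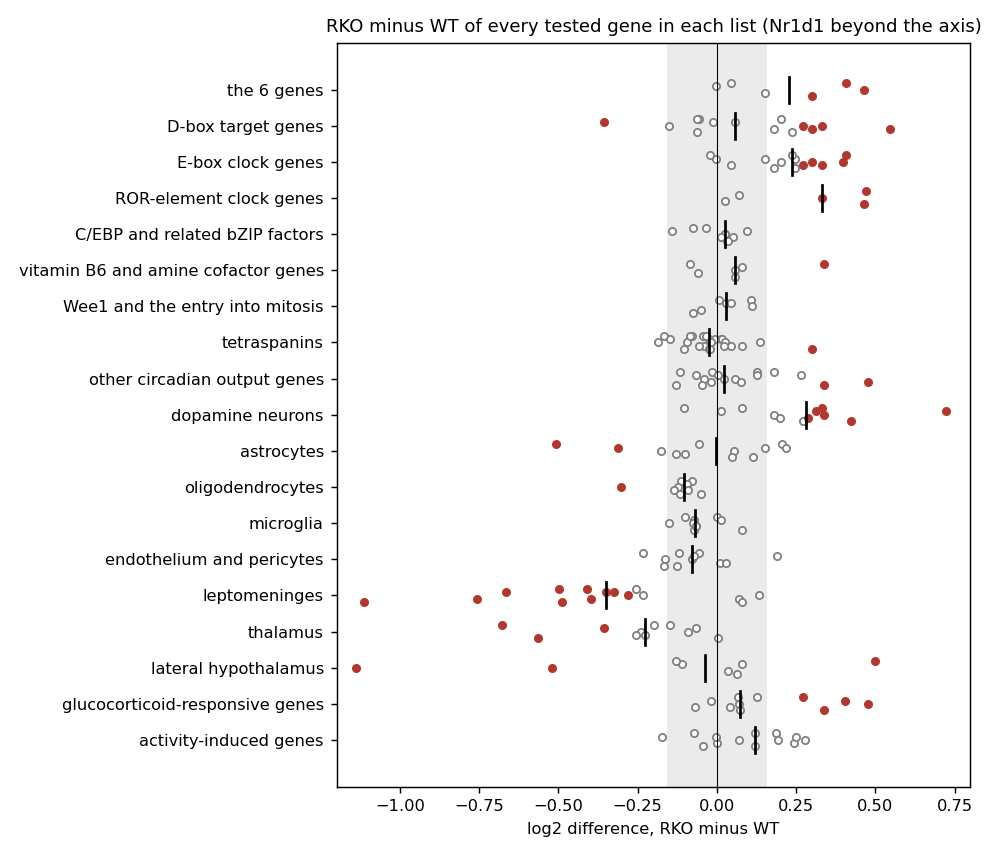
The log2 difference (RKO minus WT) of every tested gene of each list, 1 row a list. Filled points have an adjusted p under 0.05, black ticks are list medians, the grey band spans the 5th to 95th percentile of all tested genes (-0.15 to 0.15), and Nr1d1 (-1.27), which counts in its lists' medians, lies beyond the axis. The medians of the 6 genes (0.23) and of the ROR-element (0.33 with Nfil3), dopamine neuron (0.28) and E-box (0.24) lists lie right of the band. Those of the leptomeninges (-0.35) and thalamus (-0.23) lie left of it.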

How the data were processed

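Gene expression was measured on 4 Affymetrix mouse gene arrays, 2 RKO and 2 WT. The deposited values are linear intensities, 1 for each probe set on each array, read as such from their range (6.51 to 21034.5). GCOS and RMA are named, without settings, in the submitters' processing notes, and RMA as usually run removes a shift common to most genes. With 4 arrays the precision is limited.

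Intensities were taken to log2 here, with no pseudocount. Of 35556 probe sets 21789 had 1 symbol in the platform annotation, 1621 several and 12146 none. The last 2 kinds were not tested, and 0 symbols had to be updated through RefSeq. A gene with several probe sets was read from the one with the highest 4-array mean, and genes whose mean fell under the 40th percentile (log2 7.38) were left out. RKO was compared with WT with lmFit and eBayes of limma 3.58.1 (R 4.3.3), two-sided, with Benjamini-Hochberg adjustment over all tested genes and a threshold of 0.05. SE and 95% intervals are limma's moderated ones (2 residual and 8.73 prior degrees of freedom). The fit was tested on simulated data. P-values rest on the spread between these arrays, most of it borrowed from all tested genes.

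The 6 genes and all gene lists were chosen with earlier results of these data known. Of each pathway list, every gene that passed and the 3 farthest from 0 among the rest were named, and of each cell type list at most the 4 that passed with the lowest p. Some genes of the cell type lists that were not called were also named, where a list did not move as a whole. For each of the 6 genes that passed, the 3 nearest genes were named. Chromosomal neighbours, the crossed pairing and the filtered leave-one-out of Nr1d1 were added after values were seen. Alternatives were each array left out, other filters, scalings and priors, a pseudocount of 32, the mean of a gene's probe sets and a replicate block.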

Additional observations from a re-analysis of the deposited data

How the results depend on the processing

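The direction of Dbp, Nfil3, Tspan4, Tef and Wee1 held under every alternative run. Leaving out 1 array gave 0.36 to 0.45 for Dbp, with the call lost without either RKO array, and 0.26 to 0.34 for Tspan4, called only without WT replicate 2. Nr1d1 ran from -1.32 to -1.22, with every call kept under the filter and, in the fit without the filter, lost without either RKO array. With no filter Dbp (0.41), Nfil3 (0.47) and Tspan4 (0.30) lost their calls. More genes share the adjustment there, and the moderated SE was larger too. It was 0.0625 for Dbp, 0.064 for Nfil3 and 0.064 for Tspan4, against 0.0578, 0.0588 and 0.0588 with the filter. Nfil3 lies below the 60th percentile filter and has no value there. Hlf changed sign after quantile normalization (0.015) and, with values from -0.038 to 0.031, without WT replicate 2 or RKO replicate 2, never called. The cause of these changes was not tested.

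The number of changed genes, 218 in the reported fit, ran from 73 to 293 when 1 array was left out (73 without RKO replicate 1, 99 without RKO replicate 2). It was 31 with no filter, 455 with median centring and 499 with an intensity trend in eBayes. With the replicate number of the labels as a block it was 259, and all calls among the 6 genes stayed the same. Deviations of same-numbered arrays correlated at -0.114 over the tested genes, so the numbers do not show pairing. The crossed pairing, chosen after seeing the data, gave 696 genes.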
